A study of Mus musculus with 16 samples.

Results

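The loss of the transcription factor TCF21 was set against its gain, gene by gene, in cardiac fibroblasts of mice infused with angiotensin II and phenylephrine. For each gene a loss effect and a gain effect were computed as the log2 difference between altered and control libraries, each inside its own deposited table. The genes compared were the 14319 with a mean of at least 10 normalized counts in both tables, out of 16496 listed in both, 17303 listed in the loss table and 17730 in the gain table. All 10 infused libraries of the series' 16 entered the comparison. They were 2 deleted and 3 control libraries in the loss table, and 2 gain and 3 control libraries in the gain table.

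Deleted fibroblasts came from Tcf21-MerCreMer:Tcf21-fl mice, in which tamoxifen removes Tcf21, and their controls from Tcf21-MerCreMer mice. Gain fibroblasts came from Pdgfra-creERT:Col1a1-TCF21 mice, in which tamoxifen switches on a TCF21 transgene, and their controls from Pdgfra-creERT mice. All these mice were 8 to 12 weeks old, carried a Rosa26 reporter in which Cre releases green fluorescent protein, and received tamoxifen and then the 2 agents for 1 week. Sorted green cells were sequenced. Neither control was wild type, because each carried the Cre allele of its own cross, and the cells sampled were those in which that Cre had acted. Tcf21-MerCreMer acts in cells that express Tcf21 and Pdgfra-creERT in cells that express Pdgfra, so the sorted populations need not have been the same. Whether each library came from 1 mouse or from several is not given in the sources used here, so p-values measure the spread between these libraries.

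TCF21 is a basic helix-loop-helix factor that pairs with E-proteins and binds short E-box motifs. It marks resting cardiac fibroblasts and is needed for their formation from the epicardium. Angiotensin II and phenylephrine raise blood pressure and drive fibroblasts to divide, to contract and to lay down collagen-rich matrix.

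Library totals were 27814940 to 29753206 normalized counts in the loss table and 37429723 to 40970391 in the gain table. Between libraries of a table, log2 values had a Pearson's r of 0.955 to 0.983 (loss) and 0.966 to 0.985 (gain), across genes. Because the tables were normalized separately, levels are compared only inside a table. The median standard error (SE) of an effect was 0.166 for loss and 0.154 for gain, on the log2(value + 1) scale used throughout. Control means of 202 of the 14319 genes lay more than 8-fold apart between the tables; these genes stayed in the tests. The fibroblast markers Col1a1, Col1a2, Dcn, Lum, Dpt, Gsn and Pdgfra had at least 10505 normalized counts in every infused library. The T cell marker Cd3e, the Schwann cell marker Sox10 and the mesothelial markers Upk3b and Msln were listed in neither table.

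Tcf21 itself followed the labels. Deleted libraries had 258 and 185 normalized counts of Tcf21, against 2814, 1802 and 1510 in their controls. Gain libraries had 14820 and 13502, against 6058, 5145 and 6235 in theirs. The groups did not overlap in either table. Of all genes compared, 35.0% had groups that did not overlap in the loss table and 39.6% in the gain table. Tcf21 fell with loss (log2 difference -3.17 ± 0.28 SE, adjusted p = 0.0060) and rose with gain (1.29 ± 0.11, adjusted p = 0.0047). The sources used here do not give whether transgene transcripts were counted apart from those of the gene's own locus. In bulk samples such as these, fewer cells of a type and less RNA per cell cannot be told apart.

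Across the 14319 genes the loss and gain effects were close to unrelated. Pearson's r was 0.035 and Spearman's rho 0.136, as a description over genes that share libraries and normalization within each table. Pearson's r changed sign without deleted replicate 2 (-0.030), without loss control replicate 1 (-0.074) and without gain control replicate 3 (-0.035). Effects had opposite signs in 6310 genes, 44.1% of all. Loss on its own called 33 genes higher (0.23% of those tested) and 79 lower (0.552%), and gain called 225 higher (1.57%) and 384 lower (2.68%). The loss count was 30 to 164 when each library was left out in turn and the gain count 132 to 769, lowest without deleted replicate 2 and without gain replicate 2. Of the 79 genes that fell with loss, 40 had the opposite sign with gain (50.6%), and of the 33 that rose, 18 did (54.5%). Of the 384 genes that fell with gain, 144 had the opposite sign with loss (37.5%), and of the 225 that rose, 114 did (50.7%).

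A test of the difference between the loss and gain effects called 245 genes with a loss effect below the gain effect (1.71%) and 175 with it above (1.22%). A test of the mean of both effects called 383 genes lower (2.67%) and 160 higher (1.12%). A gene with a large effect of either kind can pass it too, and 480 of these 543 genes had effects of 1 sign. Genes were called reciprocal when they passed the difference test with effects of opposite sign and of at least 0.5 in size each. They were called same-direction when they passed the mean test with effects of 1 sign and at least that size. By these rules 134 genes were reciprocal, 76 down with loss and up with gain (0.531%) and 58 up with loss and down with gain (0.405%). Another 143 were same-direction, 101 down with both (0.705%) and 42 up with both (0.293%). Each of these shares was under 1% of the genes compared.

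**Figure D1:**
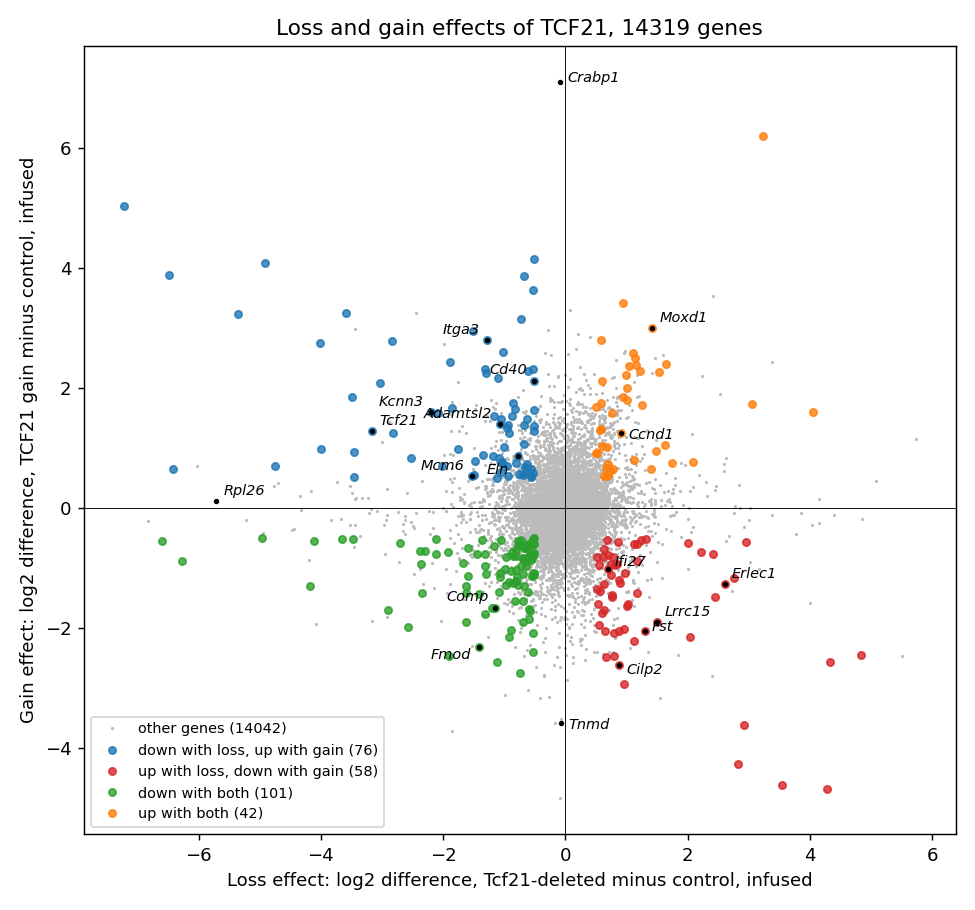
Each point is a gene, placed by its log2 loss effect (x axis, deleted minus control) and its log2 gain effect (y axis, gain minus control); colours mark the 76, 58, 101 and 42 genes of the 4 patterns and grey the rest. The grey cloud has no tilt that the eye can follow (Pearson's r 0.035), Crabp1, Tnmd and Rpl26 lie close to an axis, and all 4 corners hold called genes.

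The stricter demand that a gene pass the loss test and the gain test separately left 10 genes with opposite directions and 2 with the same direction. Tcf21, Adamtsl2, Bean1, Tspan9, Gpr137b and Sprn were among the 10, Fmod and Ccnd1 were the 2. The 10 became 1 without deleted replicate 2, 2 without loss control replicate 2 and 3 without deleted replicate 1, and 4 without gain replicate 1 or gain control replicate 1. Reciprocal genes numbered 59 to 141 and same-direction genes 38 to 286 when 1 library was left out, both lowest without deleted replicate 2 and highest without loss control replicate 3. In all 10 such fits 17 of the 76 genes, 13 of the 58, 17 of the 101 and 3 of the 42 kept their pattern. Among the first set were Tcf21, Adamtsl2, Eln, Bean1, Tspan9, Itga3, Kcnn3, Epas1, Adora1, Ptger4, Rbfox1 and Scml4, and among the second Fst, Pdgfc, Sprn, Ifi27, Cpne8, Cpxm2, Podxl2, Trabd2b and Fam180a.

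The size limit of 0.5 set the membership of many genes. Of 353 genes with opposite signs past the difference test, 219 had an effect under it, and of 480 with 1 sign past the mean test, 337 did. Just inside lay Smtnl2, with a loss effect of -1.11 and a gain effect of 0.50. Just outside lay Slc35g2, with 0.49 and -1.28, and Adam17, with -0.49 and 0.51.

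Promoter windows from RefSeq on GRCm38.p6 (250 bases before to 50 after the start) were found for 47 of the 76, 38 of the 58, 77 of the 101 and 33 of the 42 genes, and for 10932 of all genes compared. They are shown for 3 of the leading genes, 1 for each of 3 patterns, because TCF21 and its partners read E-boxes. Capitals mark every E-box, CANNTG, a motif searched on both strands.
Adamtsl2, down with loss and up with gain, chr2:27079129-27079428, plus strand: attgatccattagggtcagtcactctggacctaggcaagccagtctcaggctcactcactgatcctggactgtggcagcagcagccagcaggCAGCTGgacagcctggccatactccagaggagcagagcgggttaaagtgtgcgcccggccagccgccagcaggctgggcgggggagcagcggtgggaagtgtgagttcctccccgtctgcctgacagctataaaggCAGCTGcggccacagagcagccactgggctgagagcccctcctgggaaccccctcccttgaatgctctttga
Lrrc15, up with loss and down with gain, chr16:30283205-30283504, minus strand: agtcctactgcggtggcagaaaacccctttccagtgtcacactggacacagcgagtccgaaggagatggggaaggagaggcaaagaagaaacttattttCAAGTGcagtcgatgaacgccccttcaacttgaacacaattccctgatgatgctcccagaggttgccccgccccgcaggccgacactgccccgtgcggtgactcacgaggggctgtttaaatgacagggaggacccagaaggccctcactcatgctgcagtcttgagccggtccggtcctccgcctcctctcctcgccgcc
Fmod, down with both, chr1:134037004-134037303, plus strand: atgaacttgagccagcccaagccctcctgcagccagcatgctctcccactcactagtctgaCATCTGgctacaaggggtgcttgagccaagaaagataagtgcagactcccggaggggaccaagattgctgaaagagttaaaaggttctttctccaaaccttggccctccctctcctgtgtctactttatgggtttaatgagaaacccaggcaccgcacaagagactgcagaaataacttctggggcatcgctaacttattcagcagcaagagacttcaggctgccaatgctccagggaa

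The Adamtsl2 window held 2 copies of CAGCTG, the Fmod window 1 CATCTG and the Lrrc15 window 1 CAAGTG, while the window of Tcf21 held none. Over all windows of the genes compared, CAGCTG was present in 15.7%, CATCTG or its reverse CAGATG in 12.2% and any CANNTG, which includes both, in 64.2%. Among genes down with loss and up with gain these shares were 18.2%, 12.1% and 68.2% of 66 windows. Among genes up with loss and down with gain they were 6.82%, 9.09% and 52.3% of 44 windows, so that CAGCTG stood in 3 of them. Genes down with both held the motifs in 20, 12 and 78 of 104 windows, and genes up with both in 7, 4 and 33 of 44. These shares are descriptions and say nothing of binding.

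Genes down with loss and up with gain included Adamtsl2 and Eln, which both encode secreted proteins of elastic fibres. Adamtsl2, a secreted matrix protein that binds fibrillin and latent TGF-beta binding proteins, had 5434 and 4737 normalized counts in deleted libraries, against 11075, 10298 and 10615 in controls. In the gain table it had 77781 and 57679 in gain libraries, against 22983, 27228 and 26178 in controls. It fell with loss (-1.07 ± 0.10 SE, adjusted p = 0.0077) and rose with gain (1.40 ± 0.16, adjusted p = 0.0079). Its effects differed by -2.47 (adjusted p = 0.00020). Eln, which encodes tropoelastin, the building block of elastic fibres, had 18408 and 20471 in deleted libraries, against 34559, 34700 and 30602 in controls. Gain libraries had 214039 and 176078 of Eln, against 97609, 125709 and 99646 in controls. Groups of Eln were apart in both tables, and its effects differed by -1.64 (adjusted p = 0.0050), though neither effect passed alone (-0.78, adjusted p = 0.057; 0.86, adjusted p = 0.059).

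Bean1, which encodes a membrane protein that binds the ubiquitin ligase NEDD4, had 251 and 257 in deleted libraries, against 440, 491 and 473 in controls. Gain libraries had 2802 and 2880, against 1007, 817 and 1154 in controls. Bean1 fell with loss (-0.88 ± 0.13, adjusted p = 0.042) and rose with gain (1.53 ± 0.15, adjusted p = 0.0056). The tetraspanin Tspan9, an organiser of membrane protein clusters, had 3379 and 3597 against 5161, 5539 and 5362 in the loss table. It had 11281 and 13232 in gain libraries, against 7144, 8133 and 6923 in controls. Tspan9 fell with loss (-0.62 ± 0.09, adjusted p = 0.035) and rose with gain (0.73 ± 0.11, adjusted p = 0.018), and the spread inside each of its groups was small beside either effect.

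Adhesion and channel genes were among this pattern. Itga3, the integrin alpha chain of a laminin receptor, had 27.1 and 25.1 in deleted libraries, against 47.4, 57.0 and 99.6 in controls. It had 1458 and 1223 in gain libraries, against 198, 240 and 145 in controls, and its effects differed by -4.08 (adjusted p = 0.0016). Most of that difference lay in the gain effect of 2.80, since the loss effect was -1.28 ± 0.38 (adjusted p = 0.20). Kcnn3, a calcium-activated potassium channel, had 54.3 and 19.7 in deleted libraries, against 208, 141 and 123 in controls. Its gain libraries had 683 and 801, against 239, 222 and 272 in controls, and its effects differed by -3.79 (adjusted p = 0.0056). Lamc3, a laminin gamma chain, had loss and gain effects of -1.30 and 2.25, but its difference (adjusted p = 0.028) held in 3 of 10 fits that left out 1 library, with an adjusted p of up to 0.121.

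Among signalling genes down with loss and up with gain, Fgfr3, a fibroblast growth factor receptor, had effects of -0.95 and 1.34 (adjusted p = 0.012 for the difference, 0.0587 without gain replicate 1). Wnt4, a secreted Wnt ligand, had 19.9 and 6.95 in deleted libraries, against 19.0, 28.8 and 9.64 in controls, which overlapped. It had 218 and 359 in gain libraries, against 25.1, 10.97 and 36.3 in controls, so that its place rests on gain (3.63 ± 0.51, adjusted p = 0.015). The difference of Wnt4 held in 3 of the 10 fits. Pde9a, which breaks down cyclic GMP, and Mgam, an intestinal-type glucosidase, had loss effects of -0.92 and -1.09 and gain effects of 1.24 and 2.16. Their differences held in 4 and in 6 of the 10 fits. Mcm6, a subunit of the replicative helicase, was the reverse case. It had 647 and 708 in deleted libraries, against 1861, 1877 and 2114 in controls, and fell with loss (-1.52 ± 0.10, adjusted p = 0.0019). Its gain effect was 0.54 ± 0.16 (adjusted p = 0.12), from 3276 and 3897 in gain libraries against 2864, 2601 and 2007 in controls.

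The immune receptor Cd40, which carries co-stimulatory signals, had 177 and 133 in deleted libraries, against 204, 203 and 254 in controls. It had 1414 and 1296 in gain libraries, against 291, 328 and 317 in controls. Cd40 rose with gain (2.11 ± 0.12, adjusted p = 0.0012), its loss effect was -0.51 ± 0.21 (adjusted p = 0.30), and the difference of -2.62 (adjusted p = 0.00047) held in all 10 fits. C3ar1, the receptor for the complement fragment C3a, had effects of -1.34 and 0.88, and its difference (adjusted p = 0.049) held in 1 of the 10 fits. Myeloid markers moved alongside these 2 genes. All 13 measured members of the 22 listed had a loss effect below 0 and 12 of 13 had a gain effect above 0, with medians of -0.49 and 0.65, and none passed any test. The gain median was 0.14 without gain replicate 2. Their summed level over the members listed was 613 to 946 in deleted libraries against 906 to 1132 in controls, and 3010 to 5813 in gain libraries against 2324 to 3289 in controls. Ptprc, the common white-cell antigen, was not listed in the loss table and was 61.2 to 86.7 in gain libraries against 33.7 to 60.7 in controls. Adgre1, a macrophage marker, was listed at 0 in deleted libraries and at 0 to 21.1 in their controls. The part of myeloid cells in the reciprocal genes was not tested.

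Rps18-ps4, a ribosomal protein pseudogene, had effects of -2.84 and 2.79. Its 3 gain control libraries had 105, 172 and 1243, and its difference held in 2 of the 10 fits. It is nearly identical to other copies of its family, so its counts are uncertain. Names of predicted genes or clones made up 22 of the 76 genes of this pattern, 14 of the 58 of the opposite one, and 10 and 3 of the same-direction ones. The share of such names among all genes compared was not counted, so these numbers are not read as a trait of any pattern.

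**Figure D2:**
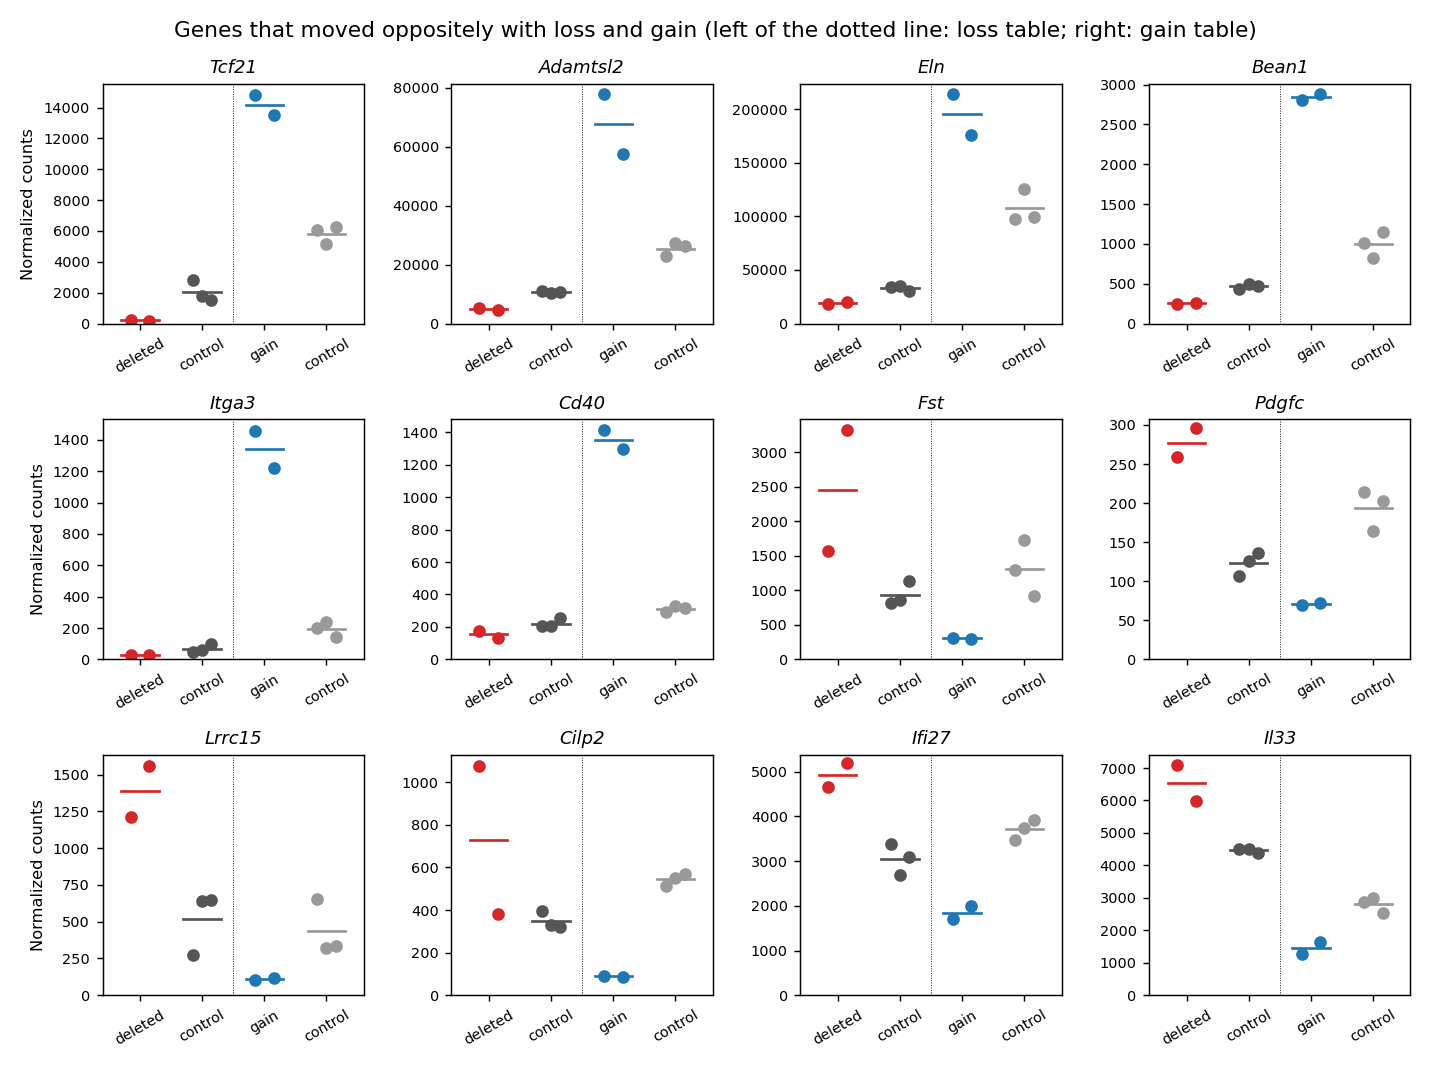
Normalized counts of 12 genes in every infused library (y axis from 0), with deleted and control libraries left of the dotted line and gain and control libraries right of it; short lines are group means, and levels are not comparable across the dotted line. In the first 6 genes deleted points lie below their controls and gain points above theirs, and in the last 6 the order is turned round in both tables except that one deleted library of Cilp2 lies among its controls.

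Genes up with loss and down with gain included ligands, their antagonists and matrix-remodelling proteins. Fst, follistatin, which binds and blocks activins, had 1574 and 3323 normalized counts in deleted libraries, against 820, 856 and 1142 in controls. It had 313 and 300 in gain libraries, against 1288, 1734 and 925 in controls. The groups were apart in both tables, which the choice of genes by size required. The effects of 1.30 ± 0.31 and -2.05 ± 0.24 differed by 3.35 (adjusted p = 0.0050). The gain effect passed its own test (adjusted p = 0.0094) and the loss effect did not (adjusted p = 0.15). Pdgfc, a platelet-derived growth factor that stimulates fibroblasts, had 259 and 296 in deleted libraries, against 106, 126 and 136 in controls. It had 70.0 and 72.4 in gain libraries, against 214, 164 and 203 in controls (difference 2.59, adjusted p = 0.0012). Pdgfa, a related ligand, had effects of 0.88 and -1.21. Its difference of 2.09 (adjusted p = 0.021) held in 6 of the 10 fits and was lost without gain replicate 1, deleted replicate 2 and gain control replicates 1 and 2, with an adjusted p of up to 0.091.

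Lrrc15, a membrane protein of activated fibroblasts, had 1213 and 1558 in deleted libraries, against 276, 642 and 646 in controls. It had 103 and 116 in gain libraries, against 653, 319 and 331 in controls. Its effects, of which gain had -1.90, differed by 3.40 (adjusted p = 0.015), and the call was lost without gain replicate 1, gain replicate 2 or deleted replicate 2, with an adjusted p of up to 0.0631. Cthrc1, a secreted protein of injured matrix, had 27710 and 40939 in deleted libraries, against 14555, 21264 and 25576 in controls, and 9188 and 10614 in gain libraries, against 31889, 36828 and 16946 in controls. The difference of 2.21 (adjusted p = 0.038) held in only 2 of the 10 fits, those without control replicate 3 of either table. Cilp2, a cartilage matrix protein, had 1077 and 381 in deleted libraries, against 393, 329 and 322 in controls, which overlapped, and 90.0 and 85.8 in gain libraries, against 515, 550 and 568 in controls. Its difference of 3.50 (adjusted p = 0.0051) held in all 10 fits and came mostly from gain (-2.62 ± 0.16, adjusted p = 0.0012). P4ha2, a subunit of the enzyme that hydroxylates collagen prolines, had effects of 0.64 and -0.68 (adjusted p = 0.016 for the difference, 0.0705 without gain replicate 2).

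Ifi27 and Il33 belonged to this pattern too. Ifi27, an interferon-induced gene, had 4669 and 5193 in deleted libraries, against 3385, 2690 and 3093 in controls, and 1706 and 1989 in gain libraries, against 3477, 3745 and 3931 in controls. Its effects of 0.69 and -1.01 differed by 1.71 (adjusted p = 0.00073). Il33, a cytokine released by damaged stromal cells, had 7101 and 5975 in deleted libraries, against 4510, 4508 and 4374 in controls. It had 1280 and 1646 in gain libraries, against 2883, 3008 and 2536 in controls (difference 1.49, adjusted p = 0.0020). Both differences held in all 10 fits. Myeloid markers lay the other way in each table, as given above. Interferon-induced genes (41 measured of 42) had medians of 0.06 and -0.13, and the loss median was -0.07 without deleted replicate 1. Of them 2 passed the difference test with loss above gain (1.22% of all genes), and 1 fell in the mean test (2.67%). Chemokines and cytokines (39 of 47) had medians of -0.14 and -0.27, with 26 members below 0 for loss and 29 for gain. Of all genes, 49.9% lay above 0 for loss and 50.8% for gain. With gain 5 members of this list fell (2.68% of all genes) and 0 rose (1.57%). The difference test called 2 of them with loss above gain (1.22%).

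Past both separate tests with this direction were Sprn and Gpr137b. Sprn, which encodes the prion-like protein Shadoo, had 1067 and 1129 in deleted libraries, against 631, 484 and 556 in controls, and 423 and 522 in gain libraries, against 1100, 859 and 1066 in controls. It rose with loss (0.98 ± 0.14, adjusted p = 0.035) and fell with gain (-1.09 ± 0.16, adjusted p = 0.016). Gpr137b, a lysosomal membrane protein, rose with loss (1.17 ± 0.16, adjusted p = 0.035) and fell with gain (-0.60 ± 0.12, adjusted p = 0.046). Its pseudogene Gpr137b-ps fell with loss (-3.66 ± 0.17, adjusted p = 0.00040), from 46.0 and 61.4 in deleted libraries against 668, 700 and 689 in controls, and had a gain effect of -0.18. The counting could have split reads between these near-identical copies, so both values are uncertain. Erlec1, a lectin of the endoplasmic reticulum, had 3247 and 3145 in deleted libraries, against 530, 501 and 540 in controls, and 602 and 578 in gain libraries, against 2411, 624 and 1933 in controls. The loss effect of 2.61 passed its own test (adjusted p = 0.00012) and the gain effect of -1.27 did not (adjusted p = 0.22). The difference of Erlec1 held in 7 of the 10 fits and was lost, with an adjusted p of up to 0.0524, without gain replicate 1, gain replicate 2 or deleted replicate 2.

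Genes down with both loss and gain included 2 abundant matrix proteins. Fmod, fibromodulin, which binds collagen fibrils and shapes their thickness, had 14535 and 13433 normalized counts in deleted libraries, against 30836, 36817 and 45490 in controls. It had 11532 and 10952 in gain libraries, against 52307, 74085 and 45181 in controls. Fmod fell with loss (-1.41 ± 0.18, adjusted p = 0.026) and with gain (-2.32 ± 0.20, adjusted p = 0.0048). Comp, cartilage oligomeric matrix protein, which also binds collagen fibrils, had 10868 and 10735 in deleted libraries, against 19610, 22778 and 30295 in controls, and 11452 and 6799 in gain libraries, against 26508, 37318 and 22312 in controls. The mean effect on Comp was -1.40 (adjusted p = 0.0059), from effects of -1.14 and -1.67. Every altered library was below every control library for both genes, and both calls held in all 10 fits. Groups that did not overlap were common in each table, as given above for all genes. Col24a1, a minor fibrillar collagen, had effects of -1.42 and -1.44 (mean test adjusted p = 0.015, 0.0603 without gain replicate 1). Ltbp1, which stores latent TGF-beta in the matrix, had 8538 and 7622 against 11882, 11854 and 10894 in the loss table and 10688 and 11616 against 17855, 14547 and 18625 in the gain table (mean -0.56, adjusted p = 0.0088).

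Other genes down with both had roles outside the matrix. Btg2, an immediate early gene that slows the cell cycle, had 13876 and 10298 in deleted libraries, against 20276, 22365 and 19087 in controls, and 12369 and 10235 in gain libraries, against 28976, 22668 and 31810 in controls (mean -1.04, adjusted p = 0.0031). Dnajb1, a heat shock co-chaperone, had effects of -0.68 and -0.66 (mean adjusted p = 0.0089). Atp6v0e2, a proton pump subunit, had 91.9 and 67.6 in deleted libraries, against 245, 152 and 137 in controls, and 37.0 and 57.5 in gain libraries, against 320, 169 and 396 in controls (mean -1.84, adjusted p = 0.0095). Thrb, a thyroid hormone receptor, had 39.8 and 208 in deleted libraries, against 523, 494 and 398 in controls, and 392 and 396 in gain libraries, against 1063, 1096 and 994 in controls. Its mean effect of -1.88 (adjusted p = 0.023) held in 6 of the 10 fits, and so did those of Adam22 (-1.43) and Negr1 (-1.36), both neuronal-type adhesion proteins. The invariant chain Cd74, which loads antigen-presenting molecules, had 62.1 and 39.5 in deleted libraries, against 234, 352 and 182 in controls, and 466 and 508 in gain libraries, against 636, 703 and 1149 in controls. Cd74 fell with loss (-2.29 ± 0.34, adjusted p = 0.042), its gain effect was -0.72 ± 0.25 (adjusted p = 0.16), and its mean effect was -1.51 (adjusted p = 0.010). Agtr1a, the receptor for the infused angiotensin II, had effects of -0.82 and -1.55. Its mean test (adjusted p = 0.044) held in 2 of the 10 fits.

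Up with both were 42 genes, of which Ccnd1, Moxd1 and Mthfd2 kept the pattern in all 10 fits. Ccnd1, cyclin D1, which drives entry into the cell cycle, had 1640 and 1616 in deleted libraries, against 843, 802 and 943 in controls. It had 1047 and 1178 in gain libraries, against 530, 435 and 441 in controls. Ccnd1 rose with loss (0.92 ± 0.11, adjusted p = 0.018) and with gain (1.25 ± 0.14, adjusted p = 0.0074). Moxd1, a copper-dependent monooxygenase, had 271 and 171 in deleted libraries, against 82.0, 75.4 and 82.0 in controls, and 1269 and 1594 in gain libraries, against 178, 202 and 153 in controls. Its mean effect was 2.21 (adjusted p = 0.00011), and its gain effect of 3.00 exceeded its loss effect of 1.42 (difference -1.58, adjusted p = 0.027). Gria1, a glutamate receptor subunit, and Gdf6, a BMP-family ligand, had mean effects of 1.34 (adjusted p = 0.012) and 1.18 (adjusted p = 0.017), which held in 8 and 7 of the 10 fits. Pmepa1, a TGF-beta target that restrains the pathway, had 11266 and 10722 in deleted libraries, against 2734, 3845 and 9413 in controls, and 12601 and 13656 in gain libraries, against 4948, 3594 and 3648 in controls. The mean test for Pmepa1 (adjusted p = 0.024) held in 3 of the 10 fits.

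Red-cell transcripts were among the genes up with both. Hba-a1 had 152 and 52.0 in deleted libraries, against 2.96, 4.06 and 6.91 in controls, and 56.1 and 19.6 in gain libraries, against 14.1, 24.1 and 2.90 in controls, which overlapped. Hba-a1 and Hbb-bs were 2 of the 42 genes, their mean tests held in 3 and 2 of the 10 fits, and each has a near-identical copy. Summed erythroid and platelet markers, 6 of 11 listed in the loss table and 7 in the gain table, reached 183 to 504 in deleted libraries against 71.1 to 78.6 in controls, and 328 to 385 in gain libraries against 247 to 330 in controls. The part of these cells in the genes up with both was not tested. Summed epicardial and mesothelial markers were 10345 to 10662 in deleted libraries against 7109 to 8764 in controls, and 13286 to 16980 in gain libraries against 5619 to 7117 in controls. Nearly all of this sum was Aldh1a2, an enzyme that makes retinoic acid, with 10336 and 10648 in deleted libraries, against 7669, 7102 and 8752 in controls, and 13283 and 16968 in gain libraries, against 7113, 6911 and 5612 in controls. Its mean effect was 0.82 (adjusted p = 0.0038), while the defining marker Wt1 was at most 13.96 normalized counts in every infused library.

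**Figure D3:**
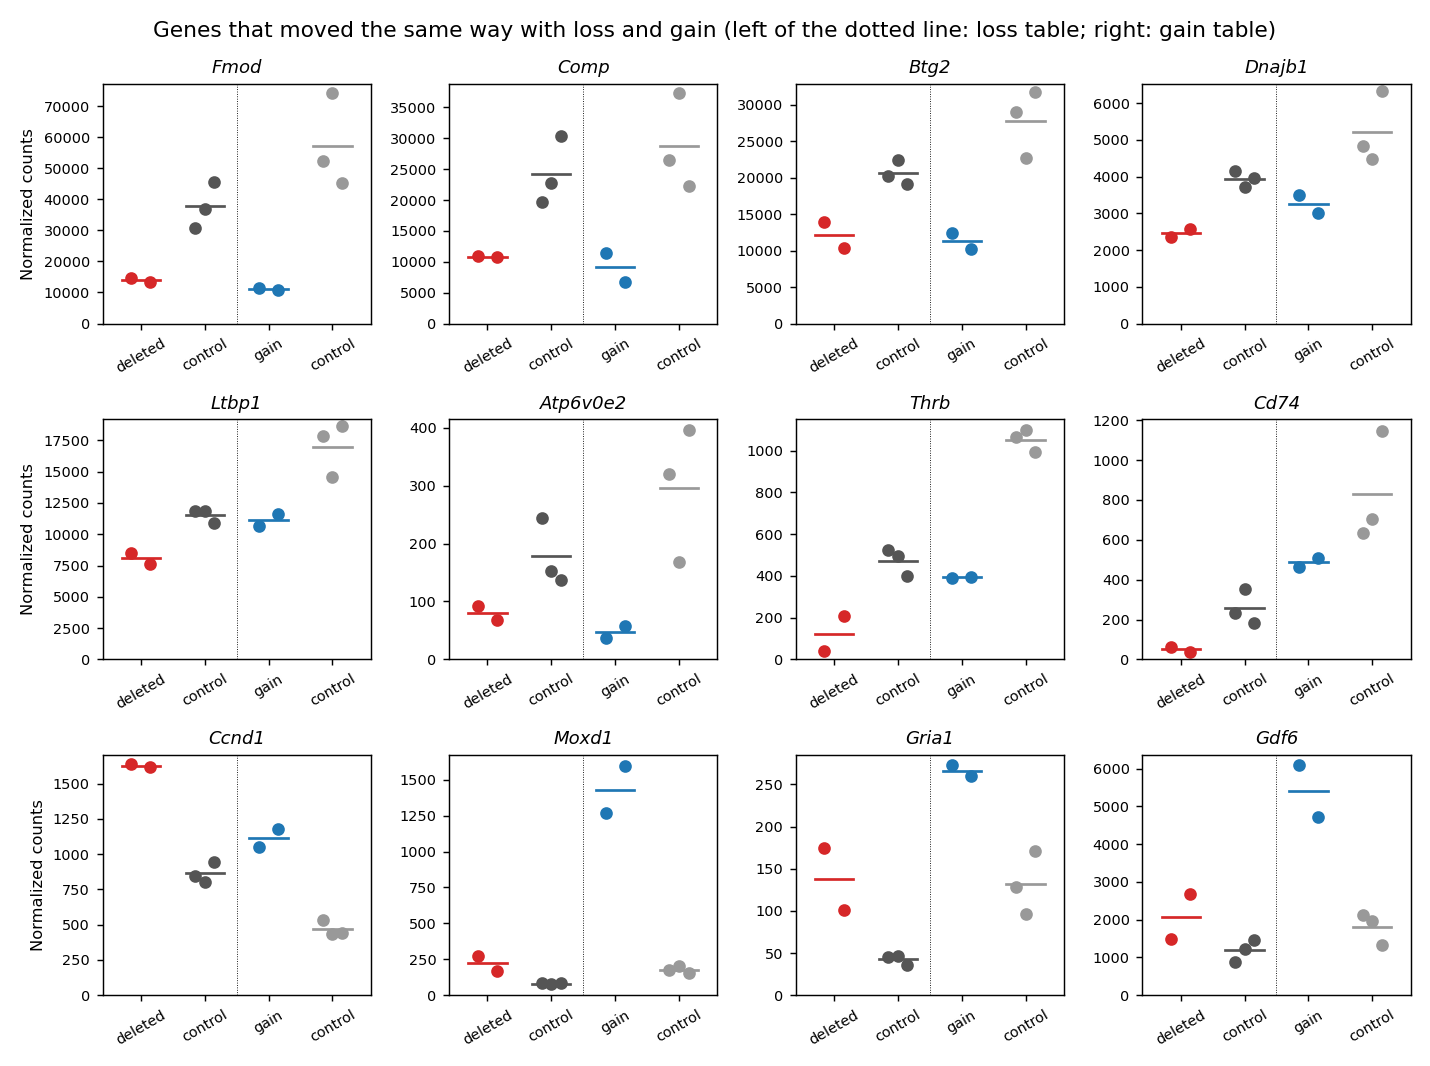
Normalized counts of 12 same-direction genes in every infused library (y axis from 0), with deleted and control libraries left of the dotted line and gain and control libraries right of it; short lines are group means, and levels are not comparable across the line. The first 8 genes are lower in altered than in control libraries of both tables and the last 4, Ccnd1, Moxd1, Gria1 and Gdf6, are higher.

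Loss of Tcf21 without infusion was measured in other libraries, 3 deleted and 3 control, all from tamoxifen-treated mice of the same 2 genotypes. These libraries took no part in choosing the patterns. Of 13939 compared genes also tested there, 231 rose (1.66%) and 291 fell (2.09%), and 51.5% had an effect below 0. Of the 71 tested genes down with loss and up with gain during infusion, 58 were below 0 without infusion (median -0.70), 17 fell and 0 rose past the limma test. The deleted gene Tcf21 itself is among the 58 and the 17 (-2.49, limma adjusted p = 4.2e-05). Of the 55 tested genes up with loss and down with gain, 47 were above 0 (median 0.62), 13 rose and 0 fell. Genes down with both were below 0 in 65 of 97 cases (median -0.27), with 9 that fell and 2 that rose. Genes up with both were above 0 in 36 of 40 cases (median 0.60), with 2 that rose and 0 that fell. Genes are not independent replicates, so these counts stand as descriptions.

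Without infusion the loss effect was -1.32 on Eln (adjusted p = 0.0029), -0.93 on Bean1 (adjusted p = 0.034) and -0.58 on Tspan9 (adjusted p = 0.049), but -0.34 on Adamtsl2 (adjusted p = 0.16). It was 0.91 on Ifi27 (adjusted p = 0.00089), 0.84 on Il33 (adjusted p = 0.0038), 1.24 on Trf, the iron carrier transferrin (adjusted p = 0.0095), and 0.92 on Sprn (adjusted p = 0.028). Fst had 0.54 (adjusted p = 0.16) and Lrrc15 0.44 (adjusted p = 0.87). Of the 55 tested genes up with loss and down with gain, 8 were below 0 here, Pdgfc among them (-1.17, adjusted p = 0.64). Pdgfc had 0, 12.1 and 52.9 normalized counts in these deleted libraries, against 17.5, 16.1 and 24.2 in controls, which overlapped. Lrrc15 was low too, with 7.41, 26.7 and 12.2 in controls, so the values of both genes are uncertain. Comp went the other way from its infused loss effect, with 1.09 (adjusted p = 0.0032), and Fmod had 0.85 (adjusted p = 0.16). Mcm6 had 0.02 (adjusted p = 0.92).

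**Figure D4:**
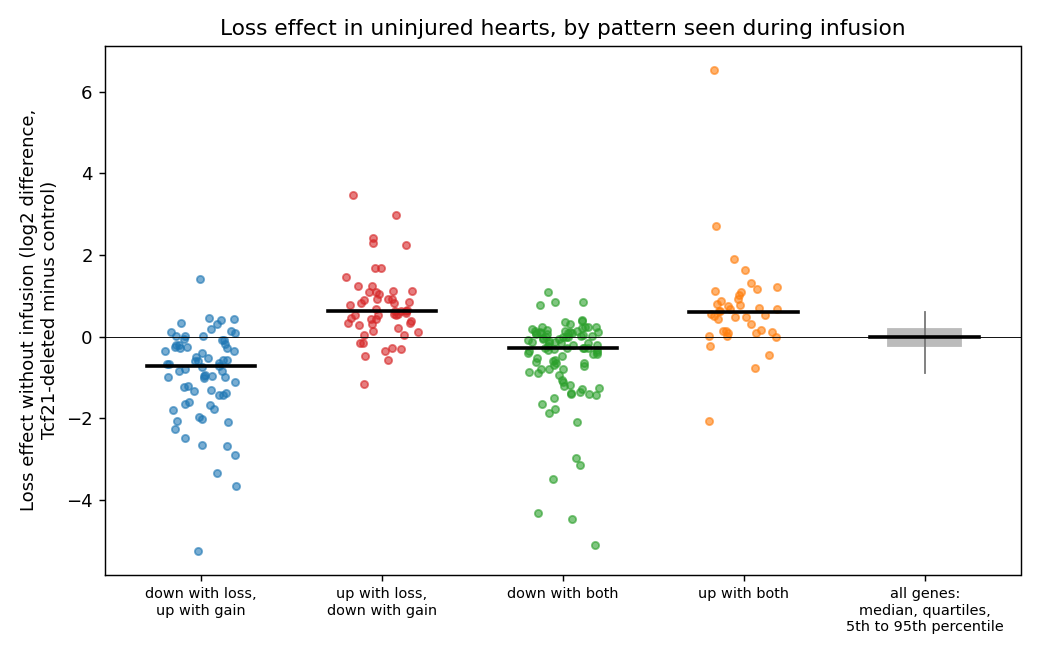
Loss effect without infusion (y axis, log2 difference, deleted minus control) of each gene in the 4 infusion patterns, with black lines at the medians of -0.70, 0.62, -0.27 and 0.60; the grey bar spans the quartiles of all 13939 genes and the thin line their 5th to 95th percentile. Most points of the first pattern lie below 0, and most of those up with loss and down with gain, or up with both, above it.

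Some genes had a loss effect past its test with hardly any gain effect, under 0.25 in size. Deleted mice, like gain mice, differed in genotype from their controls. The part of other inherited differences between the mice in these genes was not tested. Rpl26, a ribosomal protein, had 29.8 and 41.6 in deleted libraries, against 2175, 1659 and 1875 in controls, and 3084 and 2787 in gain libraries, against 2790, 2894 and 2496 in controls. Its loss effect was -5.71 ± 0.19 (adjusted p = 0.00012) and its gain effect 0.11. Ribosomal protein genes have near-identical pseudogenes, so the values of Rpl26 are uncertain. Tspan3, a tetraspanin, had a loss effect of -2.23 ± 0.08 (adjusted p = 0.00012) and a gain effect of -0.06. Zc3hav1, an antiviral RNA-binding protein, had -2.17 and -0.07, and Arhgap22, a regulator of Rac, had -2.62 and -0.20. In the other direction Mon2, a Golgi trafficking protein, had 1.69 and 0.12, Mgll, a lipase of monoglycerides, 1.75 and 0.24, and Glo1, which detoxifies methylglyoxal, 1.31 and -0.04. Chsy3, a chondroitin-making enzyme, had 1.40 and 0.05. The difference test passed for all 8 genes (adjusted p of 3.0e-06 to 0.020). Without infusion Mon2 rose with loss (2.10, adjusted p = 0.0034), and so did Glo1 (0.82, adjusted p = 0.014). Zc3hav1 (-1.63, adjusted p = 0.0019) and Arhgap22 (-1.18, adjusted p = 0.0058) fell. The effect of Mgll without infusion was -0.217, opposite in sign to that with infusion, and that of Tspan3 was -0.508.

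Other genes had a gain effect past its test and a loss effect under 0.25 in size. Tnmd, tenomodulin, a marker of tendon cells, had 24.1 and 56.2 in gain libraries, against 518, 443 and 401 in controls, and 633 and 273 in deleted libraries, against 480, 405 and 433 in controls. It fell with gain (-3.58 ± 0.35, adjusted p = 0.0058) and had a loss effect of -0.08. Galr2, a galanin receptor, fell by 2.49 on the log2 scale, and Ptgfr, a prostaglandin receptor, by 1.82, with loss effects of 0.12 and -0.07. Among genes that rose with gain, Col18a1, the basement membrane collagen that yields endostatin, had 11318 and 13001 in gain libraries, against 4133, 3908 and 2860 in controls (1.76 ± 0.16, adjusted p = 0.0054). Its loss effect was -0.19. Fblim1, an adaptor of focal adhesions, had 7638 and 7326, against 2527, 2659 and 2192 (1.61 ± 0.10, adjusted p = 0.0016), and a loss effect of 0.17. Tmc3, a membrane channel-like protein, and Cldn15, a claudin, rose by 3.29 and 1.81 with gain, with loss effects of 0.08 in each. For each of these 7 genes 1 test was followed over the fits that left out 1 library, and it passed in all 10. It was the difference test for Galr2 and Col18a1 and the mean test for Tnmd, Ptgfr, Fblim1, Tmc3 and Cldn15. A mean test can pass on a large gain effect alone, so it does not show that loss and gain effects differed. The widest gain effect among the genes named here was that of Crabp1, which binds retinoic acid in the cytoplasm. Crabp1 had 1669 and 3021 in gain libraries, against 47.5, 21.9 and 2.97 in controls (7.10 ± 0.94, adjusted p = 0.012), and 12.4 and 17.3 in deleted libraries, against 13.9, 14.1 and 19.6 in controls. Its difference test held in 9 of the 10 fits, with an adjusted p of 0.0663 without gain replicate 2.

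Many well-known genes of fibroblast activation belonged to no pattern. Postn, periostin, had 757102 and 859120 in deleted libraries, against 510755, 750319 and 837653 in controls, and 733887 and 746592 in gain libraries, against 803040, 837243 and 539447 in controls. The groups overlapped in both tables (difference adjusted p = 0.90, mean adjusted p = 0.78). Loss and gain effects were 0.42 and -0.23 on Col1a1, 0.16 and -0.51 on Col1a2, and 0.20 and -0.43 on Col3a1, with difference tests at adjusted p values of 0.53, 0.52 and 0.69. Acta2, smooth muscle actin, the usual mark of myofibroblasts, had 8728 and 14018 in deleted libraries, against 2804, 4365 and 8281 in controls, and 5096 and 7095 in gain libraries, against 6578, 6743 and 2963 in controls. Its effects were 1.25 ± 0.44 and 0.24 ± 0.35 and its difference 1.00 (adjusted p = 0.49). Tgfb1, the main fibrotic growth factor, had effects of 0.42 and 0.56 (mean adjusted p = 0.022, lost in 5 of the 10 fits with an adjusted p of up to 0.0843). Meox1, a homeobox factor of activated fibroblasts, rose with gain (0.42 ± 0.09, adjusted p = 0.045) and had a loss effect of -0.02.

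Gene lists were described by their counts and medians, to be read against the shares of all genes called by the same test and beside medians over all 14319 genes of -0.00098 for loss and 0.0044 for gain. For activated fibroblasts and matrifibrocytes 24 of 26 listed genes were measured, with a median loss effect of 0.25 and a median gain effect of -0.67. With gain 7 of its members fell and 1 rose, against 2.68% and 1.57% of all genes, and with loss 1 fell and 0 rose, against 0.552% and 0.23%. The difference test called 4 with a loss effect above the gain effect (1.22% of all genes). The loss median was 0.024 without loss control replicate 1. Relative to control means, the list's median was 0.13 and 0.27 in deleted libraries, which overlapped the -0.28 to 0.20 of their controls. It was -0.74 and -0.69 in gain libraries, below the -0.32 to 0.26 of theirs. Cartilage, bone and tendon genes (25 measured of 32) had medians of -0.08 and -0.85, with 6 that fell with gain and 1 with loss. Small leucine-rich proteoglycans (15 of 16), which coat collagen fibrils, had medians of -0.08 and -0.69, with 5 that fell with gain and 1, Fmod, with loss. The loss medians of these 2 lists changed sign, to 0.019 for cartilage genes without loss control replicate 1 and 0.086 for proteoglycans without loss control replicate 2. Chad, chondroadherin, of the same list had a gain effect of -2.49 (adjusted p = 0.0082) and a loss effect of 0.66. Fmod stands in all of these lists and Comp in the first and second, so their counts overlap.

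Other matrix lists follow, with the shares of all genes called by the same test where members were called. Matrix glycoproteins (36 of 41) had medians of -0.09 and -0.20. With gain 3 of them fell (2.68% of all genes) and 0 rose. The difference test called 3 with loss above gain (1.22%) and 1 below (1.71%). Matrix proteases and inhibitors (26 of 30) had medians of -0.04 and -0.11, and 3 fell and 0 rose with gain. Fibrillar collagens (9 of 9) had medians of 0.20 and -0.39 and opposite signs in 7 of 9 members, and none passed the loss, gain or difference test. Their loss median was 0.019 without deleted replicate 2, and their gain median -0.22 without gain control replicate 2. Elastic fibre genes (16 of 17) had medians of -0.13 and -0.13. These medians hid 2 reciprocal genes, Eln and Adamtsl2 (0.531% of all genes), and 1 same-direction gene, Ltbp1 (0.705%). With gain 2 members rose (1.57%) and 2 fell (2.68%), and with loss 1 fell (0.552%). The medians of this list were -0.029 for loss without loss control replicate 3 and -0.039 for gain without gain replicate 2. Basement membrane genes (19 of 20) had medians of -0.24 and 0.09, and 3 passed the difference test with a loss effect below the gain effect (1.71% of all genes), Lamc3, Col18a1 and Lama2. Lama2, a laminin alpha chain, had 5280 and 4415 in deleted libraries, against 9536, 9631 and 7663 in controls, with a loss effect of -0.88 (adjusted p = 0.055) and a gain effect of 0.27. Its difference (adjusted p = 0.018) was lost without gain replicate 1, deleted replicate 2 or loss control replicate 2, with an adjusted p of up to 0.0795. Contractile myofibroblast genes (23 of 25) had medians of 0.35 and 0.11, and 2 rose with gain (1.57% of all genes) and 0 with loss. Without deleted replicate 2 the loss median was 0.19, and without gain control replicate 3 the gain median was -0.080.

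For the signalling and lineage lists, 1.57% of all genes rose and 2.68% fell with gain, and 1.22% and 1.71% passed the difference test with loss above and below gain. In the list of growth factors and their receptors (32 of 37 measured, medians 0.04 and -0.28) 6 genes fell and 1 rose with gain, 0 passed with loss, and Pdgfa, Pdgfc and Fgfr3 were reciprocal. The loss median was -0.097 without deleted replicate 1. TGF-beta genes (28 of 30, medians -0.18 and -0.08) had 6 that fell and 2 that rose with gain. BMP genes (24 of 29, medians -0.17 and 0.08) had 6 that rose and 2 that fell with gain, and the difference test passed for 5, 2 with loss above gain and 3 below. The BMP medians were -0.066 for loss without deleted replicate 2 and -0.062 for gain without gain replicate 1. Chrdl1, a secreted BMP antagonist, fell with gain (-2.12 ± 0.17, adjusted p = 0.0041) with a loss effect of 0.32, and Bmper, another, fell with gain (-1.54 ± 0.14, adjusted p = 0.0054) with a loss effect of -0.17. Wnt genes (38 of 44) had medians of -0.09 and -0.19, with Wnt4 and Nkd1, a Wnt inhibitor, reciprocal and Wif1, a secreted Wnt inhibitor, down with both (effects -0.53 and -2.40, mean test held in 4 of the 10 fits). The difference of Nkd1 (adjusted p = 0.044) held in 1 of the 10 fits, that without gain control replicate 3, and its adjusted p reached 0.164. Lineage transcription factors (43 of 50) had medians of -0.10 and 0.02, with 8 that rose and 2 that fell with gain.

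Cell-cycle and early-response lists had medians of 1 sign with loss and gain. All 26 measured mitosis genes of 28 had effects above 0 in both tables, with medians of 0.62 for loss and 1.42 for gain, yet none passed any test. The loss median was 0.067 without loss control replicate 1 and the gain median 0.85 without gain control replicate 3. Relative to control means the list's median was 0.14 and 1.15 in deleted libraries and -1.04, 0.24 and 0.80 in their controls, and 1.52 and 1.30 in gain libraries and 0.77, 0.25 and -1.03 in theirs. One deleted library lay among its controls and the other above them, while both gain libraries lay above theirs. The median of this list was -0.42 with loss in uninjured hearts. Immediate early genes, which cells switch on within minutes of a stimulus or of handling, were below 0 in both tables in 29 of 32 measured members, with medians of -0.43 and -0.66. With the mean test 12 of the 32 fell (2.67% of all genes) and 1 rose (1.12%), Egr3, and 9 were down with both (0.705%). Their median relative to controls was -0.30 and -0.60 in deleted libraries, below the -0.15 to 0.19 of controls, and -0.50 and -0.80 in gain libraries, below the -0.25 to 0.26 of controls. In uninjured hearts it was -0.07 with loss.

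Circadian clock genes (17 of 20) had medians of -0.47 and -0.46, and 2 passed the mean test, both lower, of which Tef, an output regulator, had effects of -0.59 and -0.62. The call of Tef held in 8 of the 10 fits. The clock medians were -0.24 for loss without deleted replicate 2 and -0.25 for gain without gain replicate 2. The sources used here do not give times of tissue collection, and their part in the clock and early-response genes was not tested. Genes of the unfolded protein response (33 of 33) had medians of 0.35 and 0.17, with 23 members above 0 in both tables and 1 past the mean test. Their median relative to controls was 0.05 and 0.64 in the deleted libraries, so the loss median rests on deleted replicate 2. Cytoplasmic ribosomal protein genes (45 of 47) were above 0 in 44 members with loss and 39 with gain, with medians of 0.24 and 0.09 and 0 past any of the 4 tests; Rpl26, described above, is not on this list. Respiratory chain genes (41 of 51) were above 0 in 40 and 31 members, with medians of 0.26 and 0.05 and 1 past the mean test, Cycs. Antigen presentation genes (19 of 23) had medians of -0.36 and -0.51, with 4 lower in the mean test (2.67% of all genes). Their loss median was -0.098 without deleted replicate 2.

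**Figure D5:**
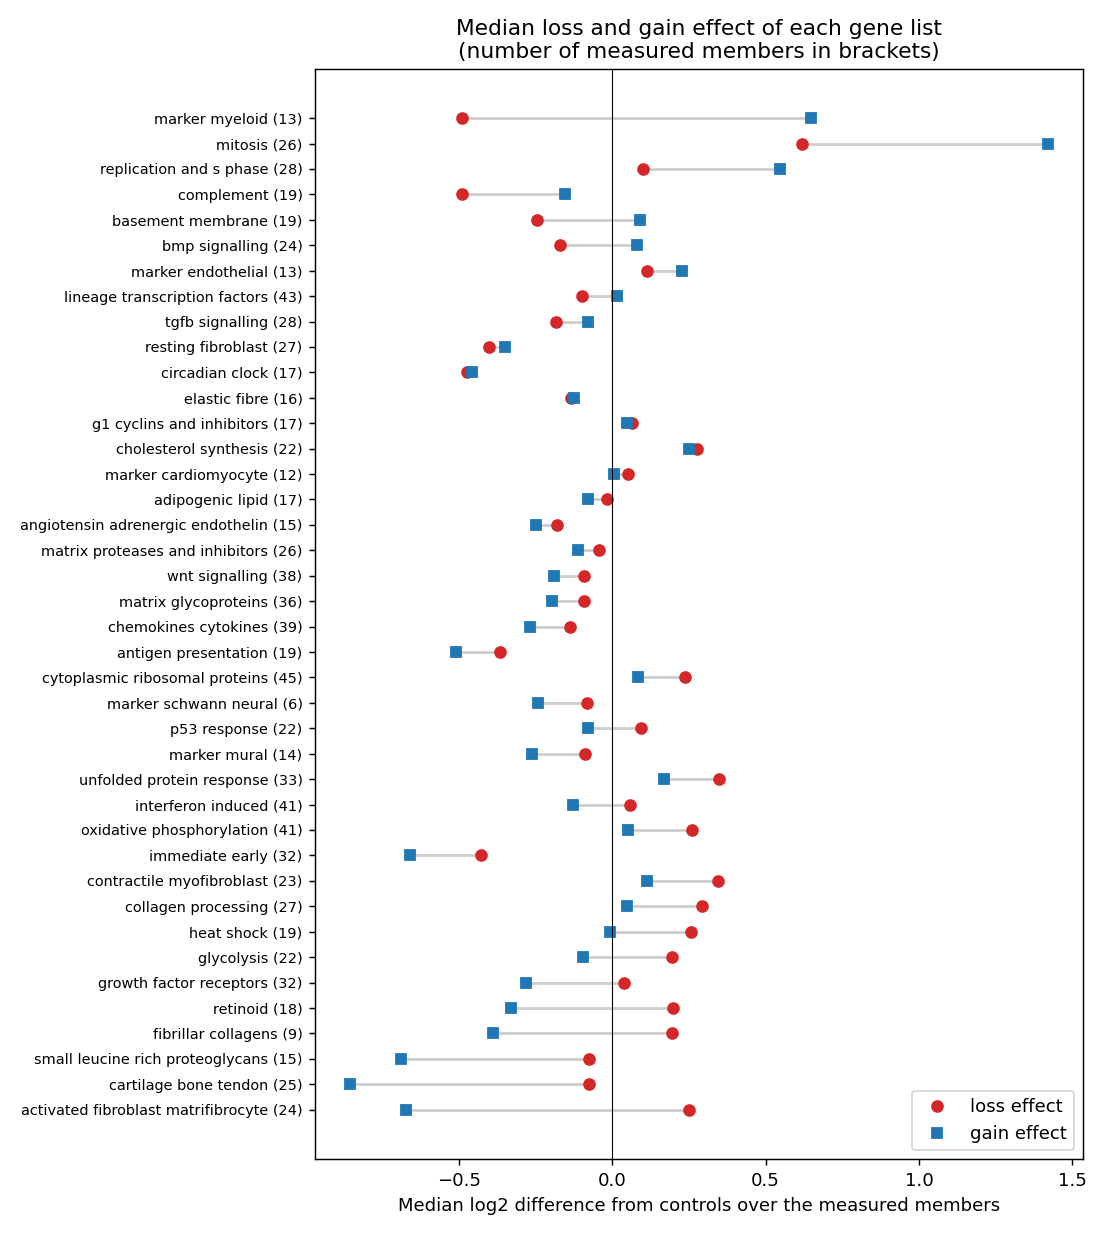
Median log2 loss effect (red circles) and gain effect (blue squares) over the measured members of each gene list with at least 5 of them, ordered by gain minus loss. Gain lies far to the left of loss for activated fibroblast, cartilage and proteoglycan genes, while mitosis genes have both medians above 0 (0.62 and 1.42) and immediate early genes both below (-0.43 and -0.66).

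Chromosomes were read from RefSeq on GRCm38.p6 for 13908 of the 14319 genes. Chromosome 10, which holds Tcf21, had 4.98% of them, and it held 4 of 74 placed genes down with loss and up with gain and 4 of 55 up with loss and down with gain. Chromosome 12 held 9 of the 74 and 9 of the 55, against 3.78% of all genes. Among genes past the loss test 18 of 104 placed lay on chromosome 1, which held 5.79% of all genes. These counts were looked at after the data were seen and were not tested.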

How the data were processed

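RNA of flow-sorted mouse cardiac fibroblasts was sequenced after SMART-seq V4 amplification, per the labels' protocols. The authors deposited normalized counts per gene (a signal scaled per library, not whole reads) in 3 tables normalized separately; kallisto, DESeq2 and GRCm38 are named, without roles or versions, in the submitters' processing notes. The infused loss and gain tables, 2 altered against 3 control libraries each, were joined by gene symbol. Whole reads could not be recovered, so no count model was run and counting error cannot be given.

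From these values, log2(value + 1) was fitted with limma 3.58.1 (R 4.3.3), with a variance trend, for the 14319 genes that averaged 10 or more in both tables. Loss and gain were each fitted in their own table. The difference and the mean of the effects came from 1 fit over the 10 libraries. Every p is 2-sided and Benjamini-Hochberg adjusted, with a threshold of 0.05. The infused tests were adjusted over these genes and the uninjured loss test over the 15544 genes tested in its own table. The test of infused against uninjured loss was adjusted over the 13939 compared genes also tested there. Patterns also needed 0.5 in each effect. The loss test in 3 deleted and 3 control uninjured libraries was added after the design was set. The script was tested on simulated data.

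Named genes were a fixed panel, all genes past both separate tests, the reciprocal and same-direction genes with the largest smaller effect, genes of 1 table alone and up to 3 members per list. Those ranked by size needed a mean of 50, groups that did not overlap and a symbol that is not a predicted gene. Epas1 and others listed for keeping their pattern, Lama2, and the genes of the size limit were chosen after their values were seen. The comparison, members and lists were chosen with earlier results of these data known. Replicate numbers were not taken as pairs. The 11 alternatives of scaling, filter, pseudocount and spread, and fits without each library, are given at the end.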

Additional observations from a re-analysis of the deposited data

Results flagged for a closer look

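The loss effect with infusion was set against the loss effect in uninjured hearts, by a limma test of the difference between them over separate libraries of separately normalized tables. For 6 of the 138 named genes the effects differed. Many named genes were chosen by the size or p-value of their infused effects, which favours such differences. The share of all genes past this test was not counted. Comp, a collagen-binding matrix protein, had a loss effect of -1.14 with infusion and 1.09 without (difference -2.24, adjusted p = 0.00156). Mcm6, a helicase subunit, had -1.52 with infusion and 0.023 without (difference -1.55, adjusted p = 0.000715). The tetraspanin Tspan3 had -2.23 with infusion and -0.508 without (difference -1.72, adjusted p = 0.000437), and the lipase Mgll had 1.75 with infusion and -0.217 without (difference 1.96, adjusted p = 0.000437). The invariant chain Cd74 had -2.29 with infusion and 0.237 without (difference -2.53, adjusted p = 0.0385). Fbln2, an elastic fibre protein, had -3.32 with infusion and 0.191 without (difference -3.51, adjusted p = 0.000103), and its control means lay more than 8-fold apart between the loss and gain tables.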

How the results depend on the processing

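Counts under the alternatives are given in the order loss, gain, difference and mean, where 112, 609, 420 and 543 genes passed. Without the variance trend they were 56, 20, 263 and 314, and genes past both separate tests fell to 0 opposite and 0 alike. With library weights they were 296, 999, 780 and 1091, with 32 opposite and 24 alike past both tests, and Pearson's r of the effects was -0.03946 and Spearman's rho 0.050577. The replicate numbers do not establish pairs; with the replicate block the counts were 1472, 1829, 901 and 1639, with 223 reciprocal and 442 same-direction genes and 189 opposite and 333 alike past both tests, and same-numbered libraries correlated at 0.20 and -0.043 (loss) and 0.10 and 0.072 (gain). With the spread estimated in each table on its own, 652 genes passed the difference test and 1031 the mean test, and 239 were same-direction. An effect of at least 1 left 41 reciprocal and 34 same-direction genes, as a higher limit must leave fewer. A mean of at least 50 gave a Pearson's r of 0.086869 and a rho of 0.1864. Apart from the effect limit, the cause of these shifts was not tested. Leaving out 1 library gave 30 to 164 genes for loss, 132 to 769 for gain, 155 to 436 for the difference and 146 to 891 for the mean. It gave 59 to 141 reciprocal and 38 to 286 same-direction genes, 1 to 14 opposite and 0 to 19 alike past both tests, a Pearson's r of -0.073886 to 0.10437 and a rho of 0.021939 to 0.18872. Without deleted replicate 2, 51 of the 59 reciprocal and 32 of the 38 same-direction genes were among those reported. Of 123 named genes past their test, 51 passed it in every such fit and 66 in at least 8 of 10. For each named gene 1 contrast was followed, either the difference or the mean of its 2 effects. The followed contrast changed sign only for Ccn2 and Pi16, the mean in both. It was -0.0041571 for Ccn2 without loss control replicate 1 (up to 0.22665) and -0.0046551 for Pi16 without deleted replicate 1 (up to 0.43354). Neither gene passed the difference or the mean test. Signs of the separate loss and gain effects of named genes were not followed.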
